A study of Mus musculus with 69 samples.

Results

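The glutathione transferases (Gst), UDP-glycosyltransferases (Ugt) and cytosolic sulfotransferases (Sult) of the mouse kidney were examined in young, nephritic and remission NZB/W F1 mice. Members were taken by name: symbols that begin with a Gst class letter (a, m, p, t, k, o or z), Ugt or Sult followed by a digit, with at least 100 reads summed over the 65 original libraries. Of 64 symbols that matched, 58 passed, among 24523 symbols with reads; 22 were Gst, 19 Ugt and 17 Sult genes. Just inside the minimum were Gstt4 with 175 reads and Sult2a5 with 211, and just outside it was Sult1e1, the estrogen sulfotransferase, with 81. The other 5 excluded symbols, Sult1c1, Sult2a4, Sult2a6, Ugt2a1 and Ugt2a2, had 5 reads or fewer.

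NZB/W F1 mice develop lupus nephritis spontaneously, and whole kidneys were profiled by RNA sequencing at zeitgeber times (ZT, hours after lights on) to follow transcripts over the day. The 30 young mice were 12 weeks old and untreated, with 7, 4, 4, 7, 4 and 4 mice at ZT0, ZT4, ZT8, ZT12, ZT16 and ZT20. The 27 nephritic mice were 30 to 45 weeks old and untreated, with 7, 4, 4, 6, 3 and 3 mice at the same times; they were collected 2 to 3 weeks after proteinuria passed 300 mg/dl and before blood urea nitrogen passed 25 mg/dl. The 8 remission mice, 36 to 50 weeks old and 4 each at ZT0 and ZT12, had received cyclophosphamide (50 mg/kg) once with 6 doses of CTLA4Ig and anti-CD40L after nephritis onset, and were collected 8 weeks later with proteinuria of at most 30 mg/dl. All groups shared strain, female sex and perfused kidneys. No untreated aged NZB/W F1 mice without nephritis were among the samples analysed, so that age and nephritis cannot be told apart between young and nephritic mice; the aged C57BL/6 mice of the study were not analysed here. The file headers give the remission libraries and 4 repeat libraries of young and nephritic mice s numbers, called the s series here, while the other headers carry mouse names. No source says what sets these libraries apart, and the s series, age and drug cannot be told apart from remission in the original libraries.

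These enzymes carry out phase II metabolism, in which a polar group is joined to a drug, hormone, bile acid or reactive lipid so that it can be excreted. Gst enzymes use glutathione, Ugt enzymes use UDP-sugars, chiefly UDP-glucuronic acid, and Sult enzymes use the sulfate donor PAPS. In kidney the cells of the proximal tubule are the main site of such conjugation, and the alpha- and mu-class glutathione transferases are among their abundant proteins.

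The libraries held 25257530 to 35744843 counted reads in young, 26596500 to 48075977 in nephritic and 13311278 to 21849912 in remission mice. The summed level of 10 proximal tubule markers, Lrp2, Slc34a1 and Miox among them, was at least 2537 CPM (a gene's reads divided by its library's total and scaled alike in all libraries) in every mouse. Liver transcripts stood out in 7 mice, 5 young (1 at ZT4, 1 at ZT8 and 3 at ZT16) and 2 nephritic (both at ZT0), whose 8 liver markers (Alb, Apoa1, Cyp2e1 and others) summed to 1844 to 13565 CPM against at most 1175 CPM in the other mice. Adrenal transcripts such as Cyp11b1 and Star stood out in 9 mice, 8 of them young, and either signal was found in 12 mice, 10 young, 2 nephritic and none in remission. Counts that changed without these 12 mice are given both ways. The remission mouse s9, labelled ZT12, had 27.3 CPM of the clock gene Arntl, within the 22.9 to 28.9 CPM of the ZT0 mice and above the 3.24 to 4.93 CPM of the other ZT12 mice.

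To show what precedes these genes in the genome, the 250 bases before the RefSeq transcription start (GRCm38.p6) are printed for 5 members that the results turn on: Gsta2, an abundant alpha-class enzyme, Ugt1a1, which was lower in nephritic mice, Sult2a3 and Ugt2b37, which were higher, and Sult1a1, which varied over time. Capitals mark matches to 1 of 6 motifs searched on both strands. Gsta2 lies at chr9:78347146-78347395 on the minus strand, Ugt1a1 at chr1:88211709-88211958 on the plus strand, Sult2a3 at chr7:14123049-14123298 on the minus strand, Ugt2b37 at chr5:87254789-87255038 on the minus strand and Sult1a1 at chr7:126676419-126676668 on the minus strand.
Gsta2: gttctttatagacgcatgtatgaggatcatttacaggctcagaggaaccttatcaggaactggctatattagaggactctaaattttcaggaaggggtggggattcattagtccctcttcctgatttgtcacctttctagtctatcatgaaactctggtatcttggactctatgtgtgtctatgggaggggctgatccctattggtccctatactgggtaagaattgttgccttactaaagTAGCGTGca
Ugt1a1: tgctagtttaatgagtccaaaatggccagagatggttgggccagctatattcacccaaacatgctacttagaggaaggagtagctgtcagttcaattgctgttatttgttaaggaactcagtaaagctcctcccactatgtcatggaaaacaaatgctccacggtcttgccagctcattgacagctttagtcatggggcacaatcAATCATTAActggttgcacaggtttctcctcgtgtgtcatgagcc
Sult2a3: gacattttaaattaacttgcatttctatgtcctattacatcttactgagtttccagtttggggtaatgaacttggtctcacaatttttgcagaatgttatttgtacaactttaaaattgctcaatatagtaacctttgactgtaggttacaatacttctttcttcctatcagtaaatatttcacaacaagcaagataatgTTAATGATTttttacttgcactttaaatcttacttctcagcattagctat
Ugt2b37: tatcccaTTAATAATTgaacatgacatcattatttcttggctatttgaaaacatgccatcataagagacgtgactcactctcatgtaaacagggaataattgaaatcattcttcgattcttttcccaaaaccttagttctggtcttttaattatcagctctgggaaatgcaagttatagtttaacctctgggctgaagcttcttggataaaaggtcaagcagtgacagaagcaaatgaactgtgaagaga
Sult1a1: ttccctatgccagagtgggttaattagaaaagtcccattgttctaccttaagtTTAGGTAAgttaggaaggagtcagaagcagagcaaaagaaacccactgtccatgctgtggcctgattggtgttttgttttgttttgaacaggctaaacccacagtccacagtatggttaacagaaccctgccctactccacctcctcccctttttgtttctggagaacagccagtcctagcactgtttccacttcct

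The match in Gsta2 is the xenobiotic response element bound by the aryl hydrocarbon receptor (TNGCGTG), that in Sult1a1 is the D-box of the clock output factors (TTANGTAA), and those in Ugt1a1, Sult2a3 and Ugt2b37 are the site of HNF1 (TTAATNATT), a factor of kidney and liver epithelium. RefSeq promoters, taken from 250 bases before to 50 after the start, were found for 50 of the 58 members, 61 promoters in all. The HNF1 letters were in 11 of these (18%) and in 1.47% of all 32851 mouse promoters. The 11 members were Sult1d1, Sult2a3, Sult2a5, Ugt1a1, Ugt1a5, Ugt1a9, Ugt1a10, Ugt2b5, Ugt2b35, Ugt2b37 and Ugt2b38, with no Gst gene among them. The antioxidant response element of NRF2 (TGACNNNGC) was in 3 member promoters (4.92%), those of Gsta3, Gstm5 and Gstm7, and in 12.4% of all. The xenobiotic response element was in 4.92% against 5.07%, the D-box in 4.92% against 2.32%, the HNF4 letters (CAAAGTCCA) in 1.64% against 0.475%, and the E-box of the core clock factors (CACGTG) in none against 7.15%. None of the 6 motifs contains another, and a match here is a description of sequence.

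In young kidneys the members ranged from abundant to barely counted. Per kilobase of exon, the scale on which levels of different genes can be set side by side, Gstm1 led with a young median of 677 CPM per kb, followed by Ugt3a2 at 433, Sult1d1 at 304, Gsta2 at 297, Ugt1a2 at 263 and Gstz1 at 174. Altogether 10 members reached 100 CPM per kb and 25 stayed under 1. Each of the 3 families had a member among the leading 3. Neighbouring ranks were not all distinct: Sult1d1 spanned 416 to 1142 CPM and Gsta2 203 to 456 CPM across young mice, so that their per-kilobase levels overlapped. Reads of some members could belong to a relative. In annotated transcripts, 39 members shared no window of 150 bases, the read length, with another gene, while the 8 Ugt1a members, which splice different first exons to common later ones, shared 56.1 to 100% of their windows, Gsta1 shared 73.7%, Gstp2 49.4%, Gstp1 41.8% and Gsta2 26.8%. The study's methods describe counting of uniquely aligned reads, while the labels name another aligner. Whether reads of shared windows were dropped or given to 1 gene was not settled here, and the values of these members are uncertain to that extent.

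**Figure D1:**
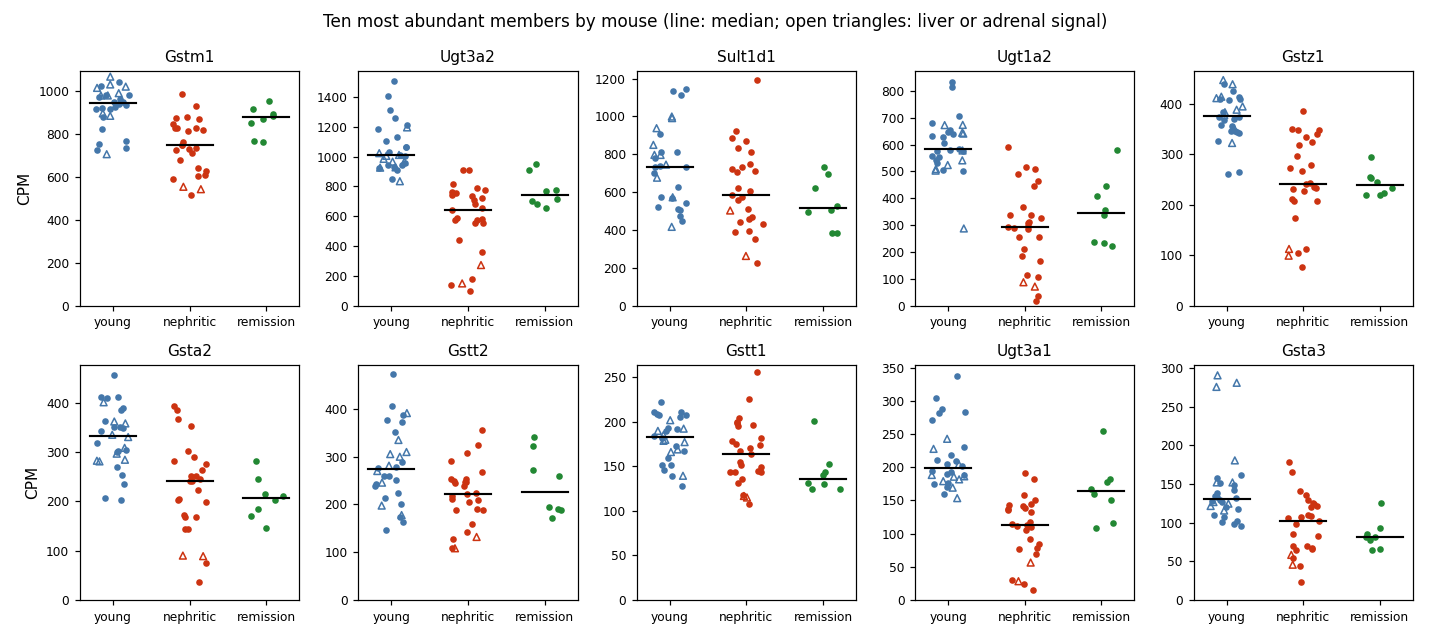
Levels of abundant members in each mouse, in CPM, for young, nephritic and remission mice; each symbol is 1 mouse, open triangles are mice with liver or adrenal transcripts, and horizontal lines are medians. The nephritic points reach well below the young ones for Ugt3a2 (98.1 CPM at the lowest against 834) and Ugt1a2 (15.4 against 287), while Gstm1 shows a smaller shift. The 287 CPM is that of ZT16RU, a mouse with liver and adrenal transcripts.

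The question of the first comparison was how these enzymes differ between nephritic and young kidneys, averaged over the day. Most members were lower in nephritic mice. By edgeR's quasi-likelihood test with Benjamini-Hochberg adjustment over all 17521 genes tested, 44 of 58 members differed (62.1% of all genes did), 39 of them lower (33.9%) and 5 higher (28.1%); the median log2 change was -0.39 over members and -0.03 over all genes. The summed level of the 58 members was 5267, 6103 and 6983 CPM (lowest, median and highest) in young, and 1940, 4265 and 6114 CPM in nephritic mice. Without the 12 mice with liver or adrenal transcripts, 33 of 56 members tested differed (55.3% of all genes), 23 of them lower (27.4%) and 10 higher (28%). In whole tissue, fewer cells of a type and less RNA per cell cannot be told apart. All 10 proximal tubule markers were lower as well, with log2 changes of -0.97 to -0.62 and summed levels of 12517 to 19646 CPM in young and 2537 to 15301 CPM in nephritic mice; their part in the changes of the members was not tested.

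Among Gst genes 17 of 22 were lower and none was higher; without the 12 mice 11 were lower and 2, Gstm6 and Gstp3, were higher. Gstm1, a mu-class enzyme and the most abundant member, had 706, 943 and 1067 CPM in young and 517, 747 and 987 CPM in nephritic mice. The log2 change in nephritic mice was -0.34 with a standard error (SE) of 0.05 (adjusted p = 1.7e-07), and the groups overlapped, with 9 of 27 nephritic mice under every young mouse. Gsta2, an alpha-class enzyme that also reduces lipid hydroperoxides, had 203, 333 and 456 CPM in young and 37, 240 and 393 CPM in nephritic mice. Its log2 change was -0.63 ± 0.13 (adjusted p = 3.3e-05), and 10 nephritic mice were below the young range. Gsta3, of the same class, fell by 0.61 on the log2 scale (adjusted p = 4.8e-05), from a young median of 130 CPM to 102 CPM. Young mice ZT16LL, ZT16RU and ZT8LU, with liver transcripts, had 290, 281 and 276 CPM, against at most 178 CPM in mice without them. Its young and nephritic means were 145 and 96.3 CPM in all mice and 127 and 99.9 CPM without the 12 mice, where it was still called lower.

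Gstz1, the zeta-class enzyme that isomerises maleylacetoacetate in tyrosine breakdown, had 261, 375 and 446 CPM in young and 77.3, 240 and 385 CPM in nephritic mice, a log2 change of -0.68 ± 0.11 (adjusted p = 2.5e-07). Of the nephritic mice 26 of 27 were under the young median and 15 under the lowest young mouse. The mitochondrial and peroxisomal Gstk1 fell by 0.65 and the omega-class Gsto2, a dehydroascorbate reductase, by 0.64 on the log2 scale. The theta-class genes changed less, with log2 changes of -0.37 for Gstt2 (young 147, 273 and 474 CPM, nephritic 108, 222 and 356 CPM), -0.34 for Gstt3 and -0.16 for Gstt1 (128, 183 and 222 against 107, 164 and 256 CPM). Gstt1 did not pass without the 12 mice (adjusted p = 0.077). The mu-class Gstm4 and Gstm7 had log2 changes of -0.39 and -0.71, while Gstm2, of the same class, stood at medians of 57.2 and 56.5 CPM (log2 change 0.00, adjusted p = 0.98). The pi-class Gstp1 had medians of 98.5 and 89.6 CPM and a log2 change of -0.17 (adjusted p = 0.013, and 0.08 without the 12 mice). The other Gst genes that were lower were Gsta1 (-0.52), Gsta4 (-0.23), Gstm3 (-0.93), Gstm5 (-0.17) and Gsto1 (-0.24). Of these 5, Gsto1 alone passed without the 12 mice, and Gstm3 was then at -0.03 (adjusted p = 0.92).

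The Ugt genes held the largest falls of abundant members: 15 of 19 were lower and 1 was higher, or 9 lower and 2 higher without the 12 mice. Ugt1a2 had 287, 583 and 835 CPM in young and 15.4, 292 and 591 CPM in nephritic mice, a log2 change of -1.19 ± 0.19 (adjusted p = 5.1e-07). The ranges overlapped in part, with 12 nephritic mice under the lowest young mouse. That mouse, ZT16RU, had liver and adrenal transcripts, and without the 12 mice with such transcripts the lowest young level was 501 CPM. Ugt3a2, of a family that transfers sugars other than glucuronic acid, had 834, 1009 and 1505 CPM in young and 98.1, 638 and 913 CPM in nephritic mice, a log2 change of -0.93 ± 0.15 (adjusted p = 7.2e-07). For Ugt3a2 25 of 27 nephritic mice were under every young mouse, and for its neighbour Ugt3a1, which uses UDP-N-acetylglucosamine, 24 were. Ugt3a1 went from 153, 199 and 338 CPM to 15.1, 113 and 191 CPM, a log2 change of -1.08 ± 0.17 (adjusted p = 2.3e-07).

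Ugt1a1, the enzyme that glucuronidates bilirubin, was low in kidney, at 5.48, 8.86 and 28.4 CPM in young and 0.694, 5.02 and 8.68 CPM in nephritic mice, with a log2 change of -0.94 ± 0.14 (adjusted p = 9.3e-08). All 27 nephritic mice were under the young median. The 28.4 CPM was that of ZT8LU, a mouse with liver transcripts. Young and nephritic means were 10.1 and 5.32 CPM in all mice and 8.32 and 5.33 CPM without the 12 mice, where Ugt1a1 was still called lower. Ugt1a10 (-0.54), Ugt2b34 (-0.47) and Ugt2b38 (-0.49) were lower too, each with an adjusted p of at most 0.05 also without the 12 mice. Ugt8a, the ceramide galactosyltransferase known from myelin, had medians of 14.7 and 11.8 CPM and did not pass (log2 change -0.10, adjusted p = 0.27). Also lower were Ugt1a6b (-0.58), Ugt1a7c (-0.30) and Ugt2a3 (-1.26), with young medians of 0.796, 14.2 and 0.764 CPM. Ugt2a3 was not called without the 12 mice, where its young and nephritic means were 0.725 and 0.674 CPM. The other Ugt genes that were lower, Ugt1a5, Ugt1a9, Ugt2b1, Ugt2b35 and Ugt2b36, are described below with the mice that had liver transcripts. In the summed level of the 8 Ugt1 genes the young median was 661 CPM and the nephritic median 341 CPM.

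**Figure D2:**
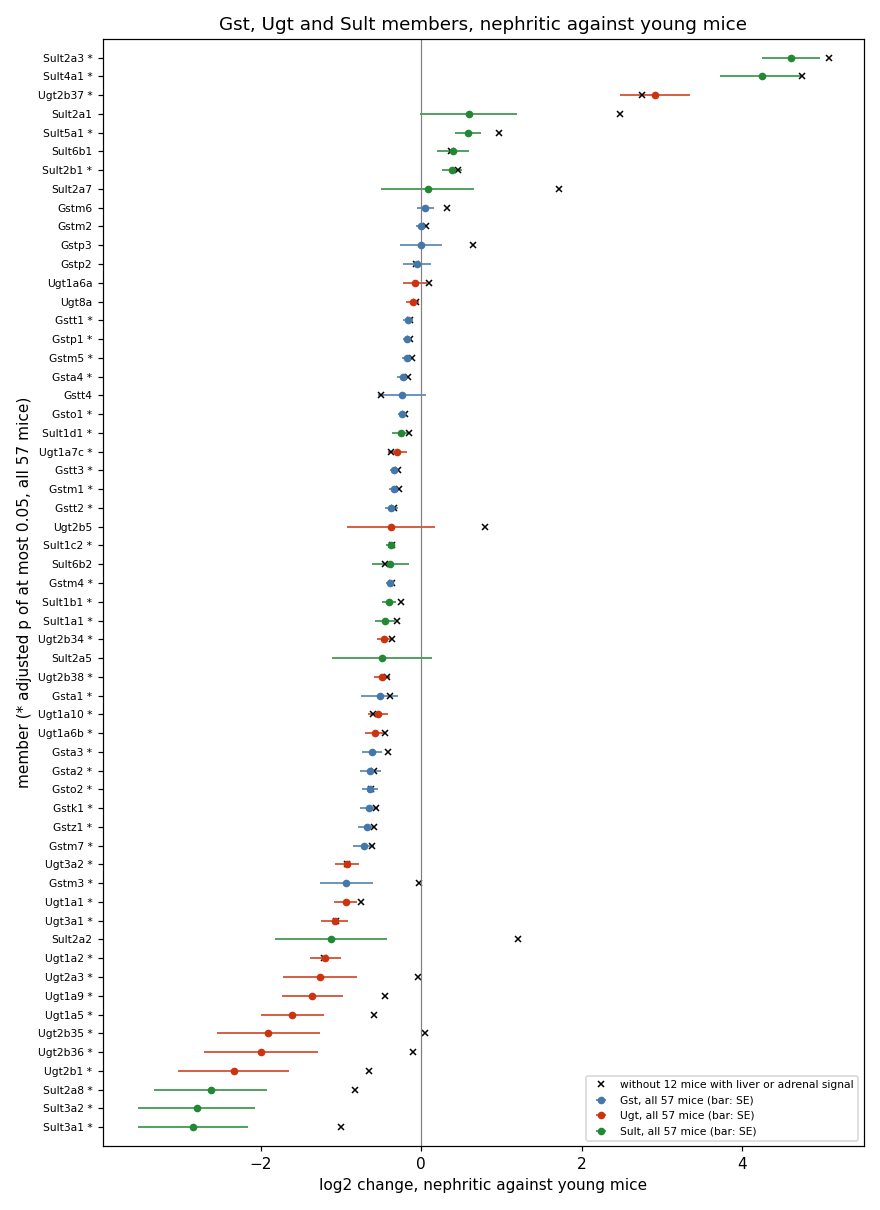
Log2 change of each member between nephritic and young mice. Coloured points and bars are the estimate and its standard error in all 57 mice, asterisks mark an adjusted p of at most 0.05, and crosses are the estimates without the 12 mice with liver or adrenal transcripts. Most points lie left of 0; Sult2a3 (4.61), Sult4a1 (4.24) and Ugt2b37 (2.92) lie far right, and the crosses depart from the points for low Ugt2 and Sult genes.

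Among Sult genes 7 of 17 were lower and 4 higher. Without the 12 mice the balance turned, with 3 of 15 tested lower (Sult1b1, Sult1c2 and Sult3a1) and 6 higher, the same 4 with Sult2a1 and Sult2a7. The abundant Sult1d1, which sulfates catecholamines and other amines and phenols, had 416, 735 and 1142 CPM in young and 225, 587 and 1193 CPM in nephritic mice. Its log2 change was small, -0.26 ± 0.11 (adjusted p = 0.039), and did not pass without the 12 mice (-0.16, adjusted p = 0.3). Sult1a1, the phenol sulfotransferase, had 48.9, 97.6 and 170 CPM against 33.6, 78.3 and 207 CPM, a log2 change of -0.45 ± 0.13 (adjusted p = 0.0015, and 0.062 without the 12 mice). Sult1c2 was lower with both sets of mice, at 64.1, 92.4 and 132 CPM in young and 46.9, 72.8 and 105 CPM in nephritic mice (-0.38 ± 0.06, adjusted p = 1.8e-07), as was the low Sult1b1 (-0.40), which sulfates thyroid hormones. The ranges of young and nephritic mice overlapped for each of these genes.

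The 4 Sult genes that were higher were all low in level. Sult2a3, of the family that sulfates hydroxysteroids and bile acids, was nearly uncounted in young mice, with 13 reads in all, in 8 of 30 mice, but had 425 reads in nephritic mice and was counted in 27 of 27. Its levels were at most 0.0819 CPM in young and 0.0722, 0.379 and 1.49 CPM in nephritic mice, a log2 change of 4.61 ± 0.36 (adjusted p = 3.3e-16) and of 5.08 without the 12 mice. Only 1 nephritic mouse was within the young range. Sult4a1, an orphan sulfotransferase best known from brain, had a young median of 0.0912 CPM with a highest value of 0.863 CPM, and 0.0635, 1.01 and 19.1 CPM in nephritic mice (4.24 ± 0.52, adjusted p = 8.9e-10). Here 15 nephritic mice were above every young mouse and 5 were under the young median, so the nephritic mice were far from uniform. Sult2b1, which sulfates cholesterol and pregnenolone, had 0.987, 2.50 and 3.68 CPM against 1.78, 3.05 and 8.15 CPM (0.38 ± 0.13, adjusted p = 0.0076). Sult5a1 had 0.553, 1.54 and 6.68 CPM against 1.59, 2.55 and 4.47 CPM (0.59 ± 0.16, adjusted p = 0.0014), and all 27 nephritic mice were above the young median. The 14 members not called in either direction were Gstm2, Gstm6, Gstp2, Gstp3, Gstt4, Ugt1a6a, Ugt2b5, Ugt8a, Sult2a1, Sult2a2, Sult2a5, Sult2a7, Sult6b1 and Sult6b2, and all but Gstm2 and Ugt8a had nephritic medians of at most 4.30 CPM. With the libraries of the larger sequencing set alone, 24 young and 22 nephritic mice, 39 members differed (55.9% of all genes), 36 of them lower (27.9%) and 3 higher (27.9%), Sult2a3, Sult4a1 and Ugt2b37. The set of a mouse was read from its name and the study's sample table, since no label gives it.

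Ugt2b37, a steroid-type glucuronosyltransferase, was the Ugt gene that was higher. It had 0.228, 0.771 and 1.79 CPM in young and 0.429, 2.52 and 82.8 CPM in nephritic mice (2.92 ± 0.44, adjusted p = 1e-07). The rise was concentrated in part of the mice. The 6 nephritic mice with the most Ugt2b37 had 82.8, 49.9, 48.3, 27.1, 19.2 and 9.06 CPM, and the next had 4.69 CPM. These mice were also the 6 with the most Sult4a1, at 5.79 to 19.1 CPM, and the 6 with the least Ugt3a2, at 98.1 to 360 CPM. They were the 6 with the highest summed level of the tubular injury markers Havcr1, Lcn2, Vcam1, Krt20, Spp1 and Timp1, at 13189 to 27939 CPM, against 1247 to 1923 CPM in young mice, and the 6 with the lowest proximal tubule sum, at 2537 to 7683 CPM. The part of injury and of tubule loss in these values was not tested. Sult2a3 did not follow this order: it was at most 0.527 CPM in the same mice and reached 1.49 CPM in the others. All 10 immune cell markers were higher in nephritic mice as well, with summed levels of 65.8 to 145 CPM in young and 124 to 3669 CPM in nephritic mice.

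**Figure D3:**
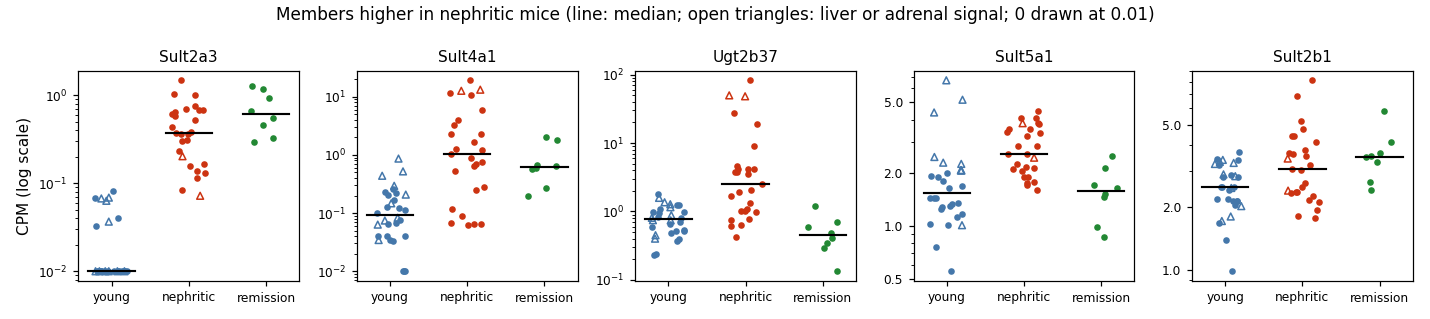
Levels of the members that were higher in nephritic mice, in CPM on a log scale, in each young, nephritic and remission mouse; open triangles are mice with liver or adrenal transcripts, and horizontal lines are medians. Sult2a3 is at or near 0 in young mice and counted in every nephritic and remission mouse (0.295 to 1.26 CPM in remission), whereas Ugt2b37 spreads from 0.429 to 82.8 CPM in nephritic mice and is 0.133 to 1.21 CPM in remission.

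A group of low members was found mostly in the 7 mice with liver transcripts. These mice are 10.8% of the 65, yet held 54.7 to 89.1% of the summed CPM of 13 members: Sult2a2, Sult2a5, Sult2a7, Sult2a8, Sult3a1, Sult3a2, Ugt1a5, Ugt1a9, Ugt2a3, Ugt2b1, Ugt2b5, Ugt2b35 and Ugt2b36. The 13 were chosen for a share of at least 50% in these mice, so that their high levels there follow from the choice. The other 45 members had a median share of 11.2% there. The young mouse ZT8LU, with the most Alb (10415 CPM), had the highest level of 12 of the 13, among them 72.0 CPM of Sult2a8, a bile acid sulfotransferase of liver, 55.9 CPM of Ugt2b36 and 46.1 CPM of Ugt2b1. In the 58 mice without the signal these genes reached at most 4.06, 3.23 and 2.44 CPM. Over all 13 members the sum was 16.6 to 319 CPM in the 7 mice and 0.333 to 19.9 CPM in the rest.

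Many calls of these 13 members changed without these mice. In all mice 9 were lower in nephritic mice, with Sult3a1 (-2.84 ± 0.68, adjusted p = 0.00033), Sult3a2 (-2.80), Sult2a8 (-2.62), Ugt2b1 (-2.34), Ugt2b36 (-2.0), Ugt2b35 (-1.90), Ugt1a5 (-1.61) and Ugt1a9 (-1.36) holding the largest falls of all members. Without the 7 mice with liver transcripts alone, 4 of the 9 remained lower: Sult2a8, Sult3a1, Ugt1a9 and Ugt2b1. Without the 12 mice 11 could be tested, and 1 was lower (Sult3a1, -0.99, adjusted p = 0.047) and 2 higher. Ugt2b36 was then at -0.10 (adjusted p = 0.86) and Ugt2b1 at -0.65 (adjusted p = 0.18). Members called higher only without the 12 mice were Sult2a1 (2.48, adjusted p = 0.00031), Sult2a7 (1.72), Ugt2b5 (0.80), Gstp3 (0.64) and Gstm6 (0.32).

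**Figure D4:**
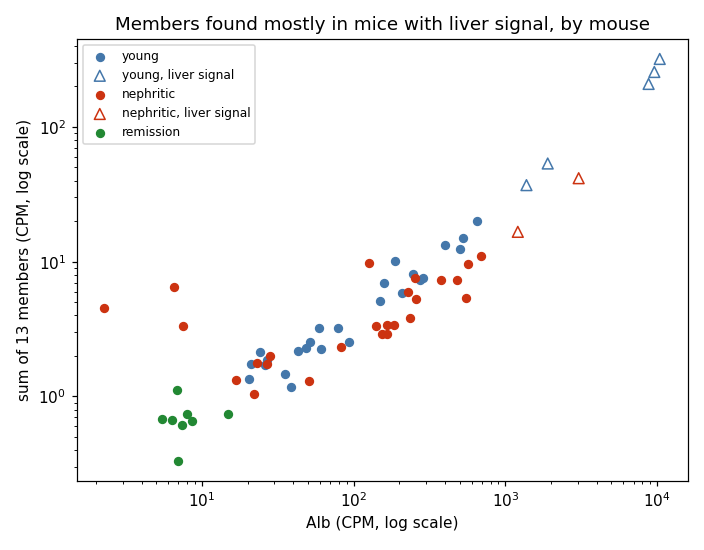
Summed level of the 13 members found mostly in mice with liver transcripts (vertical axis, CPM, log scale) against the hepatocyte transcript Alb (horizontal axis, CPM, log scale); each symbol is 1 mouse, coloured by group, and open triangles are the 7 mice with liver transcripts. The sum runs from 0.333 CPM in remission to 319 CPM, with 3 nephritic mice at the left that have 3.36 to 6.44 CPM at 7.53 CPM of Alb or less. The 13 members were chosen for their share in the 7 mice, which were picked by liver markers including Alb. High sums at the highest Alb therefore follow from that choice.

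The time labels ask whether these enzymes vary over the day. In young mice 30 of 56 members tested differed between the 6 time points (39.8% of all genes did), but 13 of the 30 were the 13 members above, and all liver-bearing young mice were at ZT4, ZT8 and ZT16. Without the 12 mice 7 of 46 members passed (18% of all genes): Gstm4, Gstp3, Gstt2, Sult1a1, Sult1c2, Sult1d1 and Ugt8a. The omission left 20 young mice, with ZT16LU alone at ZT16, and the part of fewer mice in the lower count was not tested. In all young mice a 24 h cosine called 13 (39.8%).

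Gstt2, of the theta class, gave the clearest time course in young mice (adjusted p = 1.7e-07, and 5.5e-05 without the 12 mice). Its level was 191 ± 31.4 CPM at ZT0 (SD, n = 7), then 300, 352, 376 and 387 CPM at ZT4 and 372, 391, 406 and 474 CPM at ZT8, before 288 ± 31.7 CPM at ZT12 (n = 7). Every ZT8 mouse was above every mouse of ZT0, ZT12, ZT16 and ZT20. Gstt3, of the same cluster on chromosome 10, was also highest at ZT8, at 112 ± 8.77 CPM (n = 4) against 82.3 ± 12.2 CPM at ZT0 (adjusted p = 0.0003, and 0.053 without the 12 mice). Gstm4 was highest at ZT4, 32.4 ± 2.39 CPM, and lowest at ZT16, 21.7 ± 0.549 CPM (both n = 4). Of its ZT16 mice, ZT160, ZT16LL and ZT16RU had liver transcripts, at 21.4, 22.2 and 22.2 CPM.

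The Sult genes did not share 1 peak. Sult1c2 had 116, 125, 129 and 132 CPM at ZT4 and 64.1 to 81.5 CPM in the 7 mice at ZT12, so these times did not overlap (adjusted p = 4.4e-07). Sult1d1 ran the other way, with 416, 449, 513 and 521 CPM at ZT8 and 676 to 1142 CPM at ZT12 (adjusted p = 3.1e-05). Sult1a1 was low at ZT0, 78.6 ± 19.6 CPM (n = 7), and high at ZT16, with 105, 150, 162 and 167 CPM, and at ZT20, with 97.9, 141, 152 and 170 CPM (adjusted p = 0.0003). The ZT16 mice at 150, 162 and 167 CPM, ZT160, ZT16LL and ZT16RU, had liver transcripts. Log2 amplitudes of a 24 h cosine were 0.46 ± 0.06 for Gstt2, 0.46 ± 0.07 for Sult1a1, 0.43 ± 0.06 for Sult1d1 and 0.38 ± 0.04 for Sult1c2 (SE, 30 mice). The abundant Gstm1 and Gsta2 did not pass (adjusted p = 0.97 and 0.34), with amplitudes of 0.03 ± 0.04 and 0.13 ± 0.07.

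**Figure D5:**
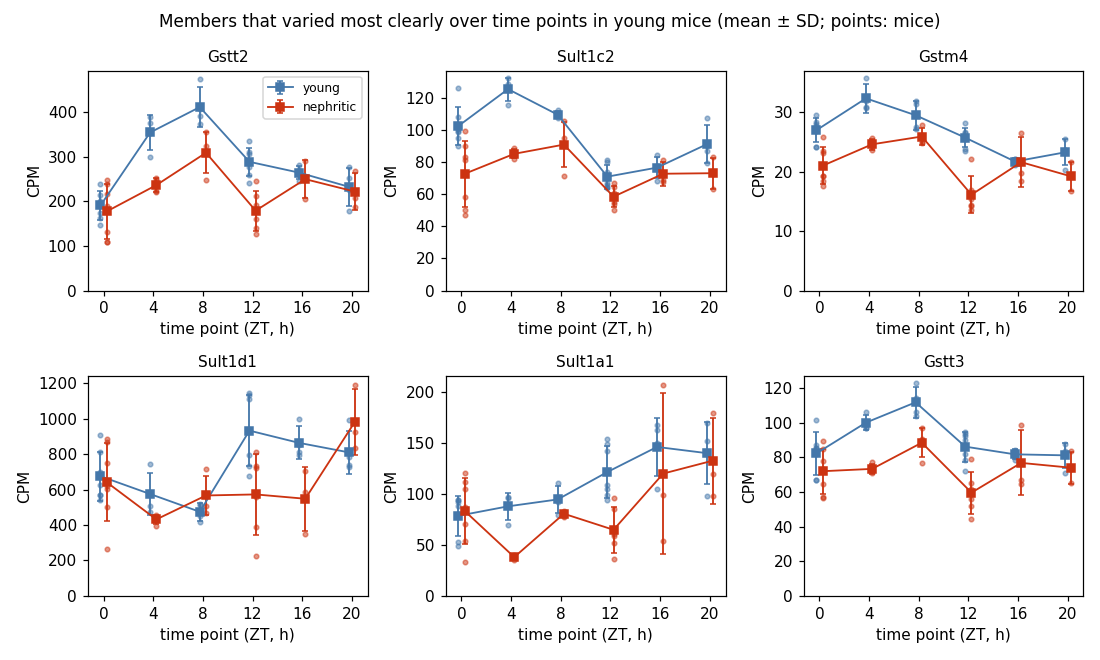
Time courses of the 6 members with the smallest p over time points in young mice: CPM against ZT in hours, with means ± SD joined by lines and points for mice, in young and nephritic mice. Gstt2 rises from 191 CPM at ZT0 to 411 CPM at ZT8 in young mice and from 177 to 308 CPM in nephritic mice, and Sult1a1 of nephritic mice drops to 38.0 CPM at ZT4.

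In nephritic mice 12 of 54 members passed over time points (21.6% of all genes), and 7 of these were among the 30 of young mice. The smallest p belonged to Ugt2b36 (adjusted p = 0.011) and Sult2a1 (adjusted p = 0.012), whose highest nephritic values were those of mouse RX10LU, a ZT0 mouse with liver transcripts, followed by Gsto1 and Ugt2b1 (both adjusted p = 0.014), Gstm4 and Gstm2 (both 0.015). Without the 2 nephritic mice with liver transcripts, 24 of 53 passed (42.8% of all genes), these 6 among them. The 2 omitted mice, RX12RU and RX10LU, also ranked 2 and 3 among nephritic mice by injury marker sum. The 6 highest injury sums were those of CRS60, RX12RU and RX10LU at ZT0, HIL5LL and HIL5RU at ZT12 and RX7LL at ZT16. Injury was thus unevenly spread over time points, and its part in these tests was not tested. A 24 h cosine called 1 (2.15% of all genes), Sult5a1. Gsto1, an omega-class thiol transferase, had 71.9 ± 8.32 CPM at ZT12 (n = 6) and 98.9 ± 14.3 CPM at ZT16 (n = 3), ranges of 63.5 to 86.7 and 89.0 to 115 CPM that did not overlap.

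The difference in time course between the groups was tested directly. Of 58 members 14 passed (6.27% of all genes), of which 10 were among the 13 members found mostly in mice with liver transcripts. Without the 12 mice 1 of 56 passed (3.65% of all genes), Sult1a1 (adjusted p = 0.032, and 0.047 in all mice). Without the mice with liver transcripts alone 3 of 56 passed (2.98%). A 24 h cosine in edgeR called none of 58 (0.691% of all genes). Sult1a1 of nephritic mice had 34.8, 37.8, 39.3 and 40.2 CPM at ZT4, under each of the young values there, 69.1, 89.0, 96.0 and 97.3 CPM. At ZT0 the means lay within 1 SD of each other, 83.4 ± 32.1 CPM in nephritic and 78.6 ± 19.6 CPM in young mice (both n = 7), and at ZT16 the 3 nephritic mice had 53.7, 99.3 and 207 CPM. The omission of the 12 mice left ZT16LU as the only young mouse at ZT16. The part of fewer mice in the count without them was not tested. Leaving out single mice moved the count of 14 between 3 and 16. For Gstt2 the test did not pass (adjusted p = 0.12), though nephritic amplitude was 0.17 ± 0.12 on the log2 scale.

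Remission mice were compared at ZT0 and ZT12 with the 13 nephritic and 14 young mice of these times. These comparisons share the remission mice, and the nephritic and young mice are those of the first comparison. Of the 6 nephritic mice with the highest injury marker sums, all but RX7LL were among these 13. Those mice had 19.2 to 82.8 CPM of Ugt2b37. The part of this share of injured mice in the comparison with remission was not tested. Against nephritic mice, 20 of 51 members tested differed (35.8% of all genes), 7 of them higher (16.8%) and 13 lower (19%). Against young mice, 28 of 47 differed (53.0%), 4 of them higher (26.2%) and 24 lower (26.8%). Without the mice with liver or adrenal transcripts 13 of 47 differed from nephritic mice (28.5% of all genes), 4 higher (12.4%) and 9 lower (16.1%), and 24 of 44 differed from young mice (52.2%), 6 higher (26.6%) and 18 lower (25.7%). The s series was also fitted as a covariate, made possible by 4 mice that have an original and a repeat library. That fit had no term for the mouse, so an original and its repeat counted as separate mice. Differences between the 4 mice and the rest of their groups therefore enter the covariate. RX12RU, 1 of the 4, ranked 2 among nephritic mice by injury marker sum. With the covariate, 10 of 54 members differed from nephritic mice (22.9% of all genes), 4 higher (9.0%) and 6 lower (13.9%). Against young mice 6 differed (13.1%), 1 higher (6.61%) and 5 lower (6.53%). The repeat library of nephritic mouse RX11RU resembled mouse RX11LU (r = 0.997 over genes) more than its own original (r = 0.985), and without it 7 differed from nephritic mice (20.7%), 2 higher (7.71%) and 5 lower (13%), and 3 from young mice (9.39%), 1 higher (4.4%) and 2 lower (4.99%).

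Of the 7 members higher in remission than in nephritic mice, 6 were glutathione transferases. Gstm4 had 25.8, 27.4 and 30.8 CPM in remission, a log2 change of 0.62 ± 0.10 against nephritic mice (adjusted p = 7.6e-05) and 0.09 ± 0.05 against young mice (adjusted p = 0.12). Gsto2 had 2.91, 3.76 and 4.89 CPM (0.91 ± 0.18, adjusted p = 0.00063, against nephritic and -0.00 against young mice). Both kept their call against nephritic mice with the s-series covariate, with and without the doubtful repeat. Gstm1 had 763, 877 and 954 CPM in remission, with all 8 mice above the median of all 27 nephritic mice. Its log2 change was 0.31 ± 0.11 against nephritic (adjusted p = 0.029, and 0.088 without the mice with liver transcripts) and -0.03 against young mice (adjusted p = 0.74).

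Gsta1, an alpha-class gene at 5.93, 10.5 and 24.4 CPM in remission, had a log2 change of 1.32 ± 0.40 against nephritic mice (adjusted p = 0.014) but 0.46 with the s-series covariate (adjusted p = 0.55), and shares most of its sequence with relatives. Gstm7 (0.76, adjusted p = 0.046) and Ugt8a (0.35, adjusted p = 0.035) passed, but neither did with the s-series covariate. Gstp1 was higher than in either other group, by 0.33 and 0.28, and with the s-series covariate by 0.13 and 0.07 (adjusted p = 0.55 and 0.82). Without nephritic mouse RX10LU, which had liver transcripts, 4 members instead of 7 were higher. RX10LU and RX12RU, the nephritic mice with liver transcripts, also ranked 3 and 2 among nephritic mice by injury marker sum (20977 and 27388 CPM). Their Gstm1 was 554 and 542 CPM. The part of injury in the calls that changed without them was not tested.

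Gsta2, Ugt3a2, Ugt1a2 and Gstz1 were not called against nephritic mice and were lower than in young mice, while Gstt1 and Gstt2 were called against neither. Gsta2 had 145, 206 and 283 CPM in remission (log2 change 0.17 against nephritic, adjusted p = 0.69, and -0.59 against young mice, adjusted p = 0.00081). Ugt3a2, at 656, 742 and 948 CPM, and Ugt1a2, at 223, 347 and 580 CPM, had log2 changes of 0.64 and 0.68 against nephritic mice (adjusted p = 0.17 and 0.27) and of -0.52 and -0.82 against young mice. Gstz1 had 218, 238 and 295 CPM, with 7 of 8 mice under every young mouse (-0.54 ± 0.08 against young mice, adjusted p = 7.5e-06). With the s-series covariate none of these 4 differed from young mice by the test (adjusted p = 0.5 to 0.74). The proximal tubule sum was 8230 to 12847 CPM in remission mice, and its part in these values was not tested.

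Of the raised genes, Sult2a3 stayed high in remission, at 0.295, 0.613 and 1.26 CPM with 107 reads in 8 of 8 mice. Its log2 change was 5.86 ± 0.48 against young mice (adjusted p = 3.2e-09, and 1.5e-05 with the s-series covariate) and 0.87 ± 0.43 against nephritic mice (adjusted p = 0.11). All remission mice were above every young mouse, which held for 2.09% of all genes. Ugt2b37 was low again, at 0.133, 0.446 and 1.21 CPM (-4.85 ± 1.13 against nephritic mice, adjusted p = 0.0027, and -0.61 against young mice, adjusted p = 0.11), and injury marker sums were 1507 to 4245 CPM. Sult4a1 lay between, at 0.197, 0.616 and 2.03 CPM (-2.74 against nephritic, adjusted p = 0.041, and 2.07 against young mice, adjusted p = 0.00023, or 0.3 with the s-series covariate). Sult5a1 was lower than in nephritic mice (-0.85, adjusted p = 0.0038), and Sult2b1 was higher than in young mice (0.70, adjusted p = 0.0023). Neither of these calls was kept with the s-series covariate.

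Ugt2b34 and Ugt2b38 had their lowest medians in remission. Ugt2b34 had 26.9, 34.5 and 46.3 CPM, under every young mouse (53.7, 69.6 and 101 CPM), with a log2 change of -0.97 ± 0.12 against young mice (adjusted p = 4.4e-07). With the s-series covariate its adjusted p was 0.047, and 0.15 without the doubtful repeat; it was not called against nephritic mice (-0.42, adjusted p = 0.16). Ugt2b38 had 15.7, 24.0 and 39.2 CPM (-1.33 ± 0.16 against young mice, adjusted p = 3.9e-07, and -0.79 against nephritic mice, adjusted p = 0.01), and passed both tests with the s-series covariate too. All remission mice under every young mouse held for 2 members, Ugt2b34 and Ugt2b1, and for 2.9% of all genes.

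Most of the 13 members found mostly in mice with liver transcripts were not or barely counted in the remission libraries, where the liver marker sum was 133 to 239 CPM. Sult2a2, Sult2a5, Sult2a7, Sult2a8, Sult3a1, Sult3a2 and Ugt2b36 had 0 reads of 150018573 in the 8 mice, which allows up to 0.02 CPM (3 reads over the group; counting error only). Against that floor Ugt2b36 was at least 60.8-fold lower than in the 13 nephritic mice and Sult2a8 at least 49.2-fold lower. Against the 11 under the liver signal minimum of 1500 CPM these bounds were 19.9 and 15.9. These 11 were not free of liver transcripts: their Alb was 2.27 to 551 CPM, and that of remission mice 5.49 to 14.8 CPM. Ugt2b1 and Sult2a1 had 1 read each, so that nephritic levels were 121 times (95% counting interval 21.5 to 4787) and 112 times (20 to 4441) those in remission, or 39.7 times (6.96 to 1586) and 50.2 times (8.84 to 1999) without the nephritic mice with liver transcripts. Ugt2a3, at 0, 0.181 and 0.399 CPM, and Ugt2b5, at 0.154, 0.331 and 0.479 CPM, were lower than in young mice (-2.24 and -1.95). The part of liver transcripts in these differences was not tested.

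Between ZT0 and ZT12 in remission no member of 37 passed by edgeR (0.0% of all 14451 genes), and neither DESeq2 nor limma called a member. In edgeR 5 had an unadjusted p under 0.05. With single mice omitted, such a p was found for 2 of 36 members and 692 of 14243 genes (without s12) up to 9 of 36 and 2447 of 14316 (without s9). The 5 were Sult1c2 (log2 change 0.33, ZT0 less ZT12), Ugt3a1 (0.48), Gsto1 (-0.22), Sult1a1 (-0.49) and Sult4a1 (-1.64). Sult1c2 had 58.7, 71.9, 73.4 and 77.8 CPM at ZT0 and 51.0, 52.6, 60.0 and 62.0 CPM at ZT12, and Sult1a1 had 60.8, 61.8, 63.7 and 64.7 CPM against 58.9, 91.5, 94.4 and 110 CPM. Without mouse s9, 1 member of 36 passed (1.41% of all genes).

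The genes that feed and follow conjugation were counted as fixed lists in the comparison of nephritic with young mice. Of 26 genes for cofactor supply and mercapturate steps, 22 were lower and 2 higher (33.9% and 28.1% of all genes were), with a median log2 change of -0.44; the counts were the same without the 12 mice. The largest falls were those of the N-acetyltransferases of mercapturate formation, Nat8f1 (-1.29 ± 0.15; young 167, 324 and 631 CPM, nephritic 30.5, 139 and 318 CPM) and Nat8 (-0.84), and of Papss2 (-0.89), which makes PAPS. Chac1, which degrades glutathione, and Ggt5, which cleaves its conjugates, were higher by 0.48 and 0.23. In remission 9 of these 26 were higher than in nephritic mice (16.8% of all genes) and none lower (19%). Higher were 7 without the mice with liver transcripts (12.4%) and 8 with the s-series covariate (9.0%), and again none was lower.

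The same shares of all genes apply to the lists that follow. Of 19 other conjugating enzymes 7 were lower, Acsm1 (-0.91) and Acsm2 (-0.67) of amino acid conjugation and Tpmt (-0.46), a thiol methyltransferase, among them. The 3 that were higher were eicosanoid synthases (without the 12 mice 5 of the 19 were higher and 7 lower): Hpgds (2.42 ± 0.14; 0.355, 1.12 and 2.28 CPM against 1.53, 6.25 and 18.2 CPM), Ptges (0.60) and Ltc4s (0.38). Of 6 deconjugating hydrolases 3 were higher and 3 lower, with Gusb, the glucuronidase of lysosomes (0.45), Arsa and Arsj higher and Arsb, Arsg and Arsk lower. Of 17 regulators 12 were lower, among them Ppara (-0.77) and Hlf (-0.65), and Nfe2l2, which encodes NRF2, was higher (0.11); without the 12 mice 8 were lower and none higher. Of 8 NRF2 and AHR reporter genes 4 were higher, with Slc7a11 (1.46), Hmox1 (1.29) and Cyp1b1 (1.03) leading, and 2 were lower, Tiparp (-0.29) and Nqo1 (-0.27). The counts of the hydrolases and of the reporter genes were the same without the 12 mice.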

How the data were processed

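Total kidney RNA was sequenced by the authors as 150 base reads, and the deposited values are raw read counts per gene symbol for 69 libraries, 65 original and 4 repeats. Per the labels, reads were handled with HISAT and mm10; the study's methods name a Burrows-Wheeler aligner with unique alignments and at most 2 mismatches. Groups and times were taken from the labels; the sequencing set (1 or 2) of young and nephritic mice was inferred from their names and the study's sample table. The 65 originals entered the tests.

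Counts were tested with edgeR 4.0.16 in R 4.3.3 (TMM factors, quasi-likelihood F test, two-sided, a minimum of 100 counts per gene in the libraries fitted, Benjamini-Hochberg adjusted p of at most 0.05 over all genes tested). Time point and sequencing set were covariates of the comparison of nephritic with young mice, set of the tests over time, and time point of the remission comparisons. Levels are TMM-scaled CPM; sums of marker genes are plain CPM. Liver signal was a marker sum of at least 1500 CPM and adrenal signal of at least 50 CPM. On simulated data the comparison of nephritic with young mice recovered 156 of 197 genes changed 1.5-fold, that of remission with nephritic mice 91 of 200, and that of ZT0 with ZT12 in remission 42 of 198.

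Members and gene lists were chosen with earlier results of these data known. Described with full statistics were Gsta2 and Gstm1, the 10 members of highest mean level, those past the threshold with the largest changes in each direction (up to 8 between nephritic and young mice, 5 in each remission comparison) and the 6 with the smallest p in each time test. Other members, Ugt1a1, Ugt1a10, Ugt2b34, Ugt2b38 and Gstk1 among them, were added after their values were seen. No label says more of the replicates than that each library is a mouse. DESeq2 1.42.0, limma 3.58.1, other filters and scalings, set 2 alone, single-mouse omissions and, chosen after seeing the data, omission of the mice with liver or adrenal transcripts and of the RX11RU repeat were alternatives.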

Additional observations from a re-analysis of the deposited data

Results flagged for a closer look

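In remission mice Sult2a1 and Ugt2b1 each stood out in mouse s10, at 0.0495 CPM with all 7 other mice at 0. Each value is 1 read. Of 18 members tested for a mouse apart from the rest of the remission group 2 were picked out. With 7 mice at 0, any read in the remaining mouse is picked out by this test. The nominal chance rate of about 1 in 20 therefore does not apply to these 2, and no conclusion is drawn from them.

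The time course differed between nephritic and young mice for 14 members by the test of the difference itself. The 6 with the smallest p were Sult2a2 (edgeR adjusted p = 0.0177), Ugt2b5 (0.0252), Ugt2b1 (0.0281), Ugt2a3 (0.0292), Gsto1 (0.0307) and Sult2a5 (0.0327). Apart from Gsto1 these are members found mostly in the 7 mice with liver transcripts. Without the 12 mice with liver or adrenal transcripts none of the 5 that could be tested passed (Sult2a5 was under the count minimum), with Gsto1 at an adjusted p of 0.057, and the part of those transcripts in the differences was not tested.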

How the results depend on the processing

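The counts of members called kept within 1.5 times their size under RLE size factors, DESeq2, no filter, edgeR's expression filter and the repeat libraries in place of the originals, and no single-mouse omission reversed a count. Omitting each mouse in turn gave 39 to 45 members between nephritic and young mice (5 to 6 higher, 34 to 39 lower), 24 to 32 over time in young and 11 to 14 in nephritic mice, 14 to 23 between remission and nephritic mice (4 to 9 higher, 10 to 14 lower), 26 to 30 between remission and young mice (3 to 6 higher, 23 to 25 lower), 0 to 1 between ZT0 and ZT12, and 3 to 16 for the difference in time course. The last fell to 3 without RX9RU, 4 without RX8LL, 6 without ZT0LU, ZT16RU or RX7LL, 7 without ZT0RU, ZT0RL or ZT16LL, 8 without RX10LU and 9 without CR6RL, HIL5RU, RX11LU, RX1OLL or RX8RU.

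Counts moved further as follows. A 24 h cosine gave 13 in young mice, 1 in nephritic mice and 0 for the difference. limma gave 15 in young mice and 4 for the difference, no set covariate 5 in nephritic mice, and set 2 alone 3 higher in nephritic mice and 9 for the difference. The s-series covariate gave 10 (4 higher, 6 lower) against nephritic and 6 (1 and 5) against young mice, and without the RX11RU repeat 7 (2 and 5) and 3 (1 and 2). Without s9 1 member differed between ZT0 and ZT12. Without the mice with liver or adrenal signal 10 were higher and 23 lower in nephritic mice, 7 varied in young and 24 in nephritic mice, 1 differed in time course and 13 (4 higher) differed between remission and nephritic mice; without those with liver signal alone the counts were 9 higher, 9, 24, 3 and 13 (4 higher). Where no value shows otherwise, the cause was not tested.

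Signs turned for these members. Between remission and nephritic mice the log2 change of Gsta3 became 0.383 with the s-series covariate, 0.338 without the RX11RU repeat, 0.105 in limma and -0.157 to 0.0537 with single mice omitted; that of Gstt1 became 0.0469 and 0.0282, that of Sult1d1 0.83 and 0.788, and that of Gsta2 -0.106 with set 2 alone. Between remission and young mice Gstm1 became 0.0271 and 0.0266 with the s-series covariates, 0.0437 without the mice with liver or adrenal signal and -0.0553 to 0.00364 with single mice omitted; Gstt2 became -0.0657 with set 2 alone, -0.0353 and -0.00331 with the s-series covariates and -0.0244 to 0.129 with single mice omitted; Sult1d1 became 0.377 and 0.349. Between nephritic and young mice Ugt2b35 became 0.0417 without the mice with liver or adrenal signal. No paired analysis was possible because the labels give no replicate number shared between groups and each mouse was collected once. In the 8 remission libraries members under 0.02 CPM could not be counted there.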

Other observations

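3 nephritic mice had levels of the 13 members found mostly in mice with liver transcripts (summed 3.36, 4.51 and 6.44 CPM) at 7.53, 2.27 and 6.58 CPM of Alb. Ugt2b5 made up most of each sum (2.32, 4.01 and 5.19 CPM), and most of the other 12 were at or near 0. These are the mice RX7LL, HIL5RU and HIL5LL, which are among the 6 with the most Ugt2b37. In the 8 remission mice, with 5.49 to 14.8 CPM of Alb, the same sum was 0.333 to 1.12 CPM.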
